A study of Gallus gallus with 12 samples.

Results

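The comparison described here sets open chromatin of the optic fissure margin (OFM) against that of dorsal retina in wildtype hy-line chicken embryos at Hamburger-Hamilton stage 30 (HH30). At this stage the fissure is still closing. The members are all peaks of the 2 HH30 peak lists, 214859 of the 421414 peaks in the whole series: 108689 from OFM and 106170 from dorsal retina. Each list came from 3 ATAC-seq libraries whose peaks were called together, and each library pooled dissected tissue of 10 embryos. Fissure and dorsal pieces were cut by hand from each eye. The labels do not say which OFM and dorsal pools came from the same embryos. The other 6 libraries, of both tissues at HH34, serve below only to show which HH30 differences were also seen later. The dissection defines the groups, and cells that adhere to a piece of margin, such as pigment epithelium or periocular mesenchyme, were not removed by any sort named in the labels.

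The optic fissure is a transient opening on the ventral side of the optic cup, through which mesenchyme and blood vessels enter the eye. Its 2 margins must meet, lose their basement membranes and fuse, and failure leaves a coloboma. Dorsal retina belongs to the same neuroepithelium but takes part in no fusion, and the dorsal and ventral cup are known to use different sets of transcription factors. In ATAC-seq, Tn5 transposase inserts adapters where DNA is free of nucleosomes, so a peak marks a promoter, enhancer or other accessible site. Birds have a few large chromosomes, many small gene-rich ones called microchromosomes, and the sex chromosomes Z and W, with ZZ males and ZW females.

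A joint call leaves 1 value per tissue and no replicate spread. No difference below was tested against biological variation, no p-value was computed, and the intervals given are Wilson intervals that cover counting error alone. Peak strength is given as a percentile rank by the authors' area score within its own list, where 100 is the strongest peak and values near 0 the weakest. Scores themselves were not compared between lists. Positions count from 1 and belong to the build named in the submitters' processing notes, galGal6 (GRCg6a). The gene table at hand is of GRCg7b, so no gene was placed at a peak, no sequence was read, and the labelled tissues were not checked against marker genes.

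Both tissues opened largely the same sites at HH30, and the sites found in a single tissue were weak. In OFM 13062 peaks overlapped no dorsal peak by even 1 bp, which is 12% of the list (interval 11.8% to 12.2%). In dorsal retina 10363 peaks overlapped no OFM peak, which is 9.76% (interval 9.58% to 9.94%). Unmatched peaks had a median percentile rank of 13.0 in OFM and 11.1 in dorsal retina. Their median −log10 q at the summit was 4.24 in OFM and 3.94 in dorsal retina, against 8.84 and 8.27 for matched peaks of the same lists.

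The unmatched share fell steeply with strength in both tissues. Of the strongest 10% of peaks, 0 of 10869 were unmatched in OFM (interval up to 0.0353%) and 0 of 10617 in dorsal retina (interval up to 0.0362%). In the fifth of 10 equal bins, 3.26% of OFM peaks and 0.631% of dorsal peaks were unmatched. In the weakest bin it was 48.8% of OFM peaks and 44.8% of dorsal peaks. In relative terms the tissues thus differed more in the middle of the lists than at their weak end. Over the upper 50% of each list, 553 OFM peaks (1.02%) had no dorsal peak of any rank and 105 dorsal peaks (0.198%) had no OFM peak. With lists cut to equal length these counts were 498 in OFM and 121 in dorsal retina.

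**Figure D1:**
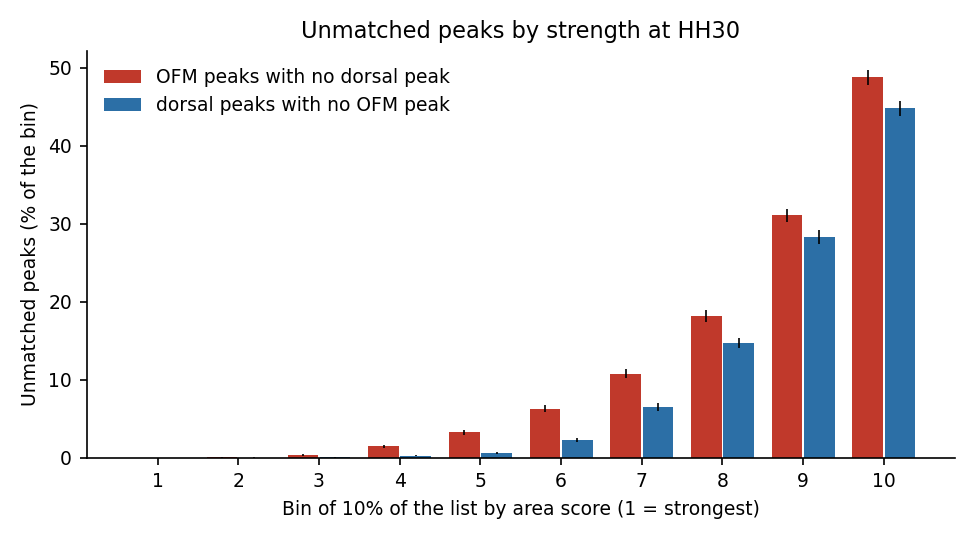
Share of unmatched peaks (y axis, % of the bin) in 10 equal bins of each HH30 list by area score (x axis, 1 is the strongest), for OFM (red) and dorsal retina (blue). Error bars are 95% Wilson intervals for counting error; the share is 0 in the first bin of both lists and reaches 48.8% in OFM and 44.8% in dorsal retina in the last.

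An unmatched OFM peak lay a median of 2408 bp from the nearest dorsal peak, and an unmatched dorsal peak 1507 bp from the nearest OFM peak. Peaks within 200 bp of the other list made up 8.97% of unmatched OFM peaks and 11.1% of unmatched dorsal peaks, and peaks within 10 kb made up 82.9% in OFM and 89.1% in dorsal retina. Among the unmatched peaks of the upper 50%, 129 of 553 in OFM and 20 of 105 in dorsal retina lay more than 10 kb away. The farthest of these strong peaks lay 108160 bp from the other list in OFM and 83284 bp in dorsal retina.

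The 10 strongest OFM peaks without a dorsal counterpart were spread over 8 chromosomes. The first, on chromosome 21 at 2313933 to 2315112, had a percentile rank of 84.4 in OFM and a −log10 q of 16.2. The second, on chromosome 6 at 29973708 to 29974588, had 83.5, and the next, on chromosome 4 at 47285460 to 47286272, had 82.9. The chromosome 4 site lay only 759 bp from a dorsal peak, while the chromosome 21 site lay 4514 bp away. Next came sites on chromosomes 2 (31411245 to 31412057), 10 (9074413 to 9075442), 1 (106816332 to 106817053 and 4922301 to 4923094) and Z (10045641 to 10046407). The last 2 lay on chromosome 2 (112547956 to 112549089) and chromosome 9 (19315391 to 19316409), at percentile ranks of 77.6 and 77.5.

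All 10 of these OFM sites also had an OFM peak at HH34, and 0 of the 10 had a dorsal peak at HH34. The site on chromosome 6 ranked at percentile 87.2 in the HH34 OFM list, the highest of the 10. The Z site was the lowest there, at 30.2. Libraries of other embryos thus gave the same tissue order at each of these positions.

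The 10 strongest dorsal peaks without an OFM counterpart were more concentrated. Chromosome 15 held 3 of them within a single 250 kb window, at 12597891 to 12599455, 12591997 to 12593201 and 12558170 to 12558561, with dorsal percentile ranks of 82.4, 82.1 and 72.6. Chromosome 1 held another 3, at 6560754 to 6561388, 143687986 to 143688719 and 143699979 to 143700618, with percentile ranks of 79.6, 76.5 and 75.2. Single sites were found on chromosomes 21 (5960937 to 5961433), 2 (103548366 to 103548858), 27 (362139 to 363867) and 4 (657587 to 658674). The chromosome 27 peak was 1729 bp wide with a −log10 q of only 5.00 and lay 149 bp from an OFM peak.

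These dorsal sites fared less uniformly at HH34. A dorsal peak and no OFM peak was seen at 6 of the 10, among them all 3 of chromosome 15. Neither tissue had a peak at the sites on chromosome 1 from 6560754 and on chromosome 2. Both tissues had one on chromosomes 27 and 4. On chromosome 27 the HH34 percentile ranks were 94.8 in OFM and 94.3 in dorsal retina. Each is the rank of the strongest HH34 peak that touches the site, and the extent of that peak was not examined. With an OFM peak 149 bp away at HH30, these ranks do not show that the site itself newly opened in OFM.

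Sites called in both tissues were compared by rank. A peak of each list that overlapped the other and no further peak formed a pair, which gave 89947 pairs. The rank difference of a pair is its percentile in OFM minus that in dorsal retina. Ranks were close: the middle 50% of differences lay between −3.69 and 4.36 points, the median was 0.14, and Spearman's rho across pairs was 0.921, given as a description since pairs are not replicates. Summits nearly coincided, with a median distance of 2 bp, 92.9% within 50 bp and 2081 pairs more than 200 bp apart.

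Of the pairs, 12183 (13.5%) ranked at least 10 points higher in OFM and 11167 (12.4%) at least 10 points higher in dorsal retina. The order of these counts depended on list length. With lists cut to equal length there were 10686 pairs higher in OFM and 12512 higher in dorsal retina, and the median over all pairs moved to −0.18. At 20 points the counts were 4543 (5.05%) for OFM and 3599 (4%) for dorsal retina. In the full lists, shifts of at least 50 points were commoner toward OFM, with 215 of the 89947 pairs against 74 toward dorsal retina. The counts at 20 and 50 points were not recomputed at equal list length, so their order may depend on it too.

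Rank shifts came from the lower and middle parts of the lists. Among pairs with a mean percentile above 75, 0.865% ranked 10 points higher in OFM and 0.319% in dorsal retina, and the SD of the difference over pairs was 2.60 points. Below a mean of 25, the share was 22.5% in each direction and the SD was 14.1 points. Shifted pairs changed in width as well as in rank. Pairs higher in OFM had peaks with a median width of 355 bp in the OFM list and 250 bp in the dorsal list. For pairs higher in dorsal retina the median widths were 273 bp in the OFM list and 363 bp in the dorsal list. The area score sums over width, so width and rank are not separate readouts. The q value at the summit does not sum over width. It comes from the same joint call as the area score, so the shares below are no separate support for the shifts. By rank of q, 88.8% of pairs higher in OFM were also at least 10 points higher in OFM, and 87.6% of those higher in dorsal retina were so in dorsal retina. Over all pairs these shares were 14.2% toward OFM and 13.3% toward dorsal retina.

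**Figure D2:**
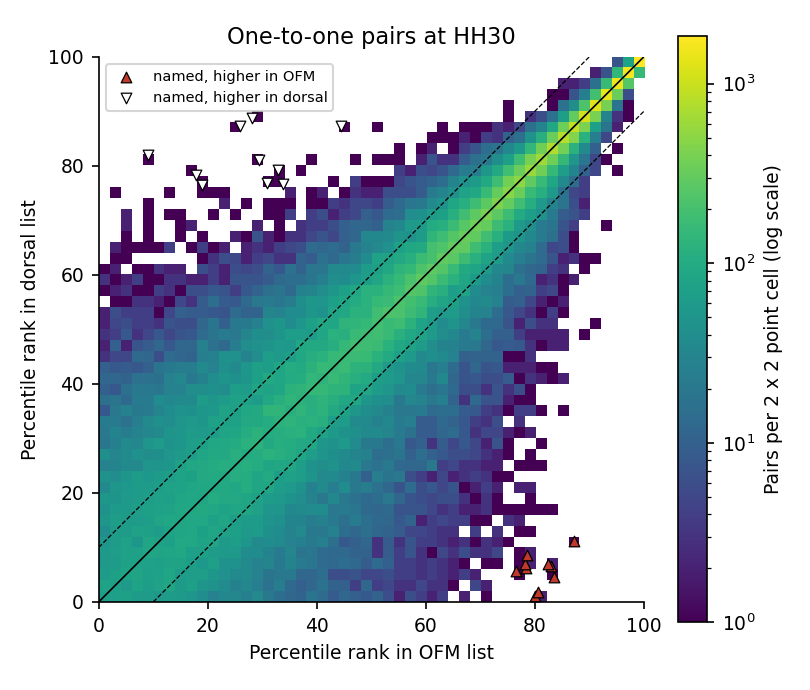
Percentile rank in the OFM list (x axis) against that in the dorsal list (y axis) for the 89947 pairs at HH30, coloured by pairs per cell on a log scale. Dashed lines mark a difference of 10 points; the 10 named pairs higher in OFM (red triangles) sit at the lower right and the 10 higher in dorsal retina (white triangles) at the upper left, away from the dense diagonal.

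Pairs were named where a site stood at percentile 75 or above in a tissue, which held for 26440 pairs. Among these, 256 ranked at least 20 points higher in OFM and 59 in dorsal retina. Over all 89947 pairs the shares at 20 points were higher, at 5.05% toward OFM and 4% toward dorsal retina. A shifted pair passes the filter through the tissue where it ranks high. The counts of 256 and 59 were not recomputed at equal list length. The pair with the largest shift toward OFM lay on chromosome 1 at 173972484 to 173973774, with a percentile of 83.4 in OFM and 4.51 in dorsal retina. Its OFM peak was 1291 bp wide and its dorsal peak 132 bp. A site on chromosome 2 at 70170004 to 70170688 stood at 80.02 in OFM and 1.15 in dorsal retina. Another on chromosome 1, at 126199489 to 126200046, stood at 80.6 in OFM and 1.89 in dorsal retina, with −log10 q of 19.6 and 3.07. At these 3 sites the dorsal peak was the narrower of the pair and ranked near the bottom of its list. Both follow in large part from choosing the largest shifts by a score that sums over width.

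The site on chromosome 7 at 3833642 to 3834655 was the strongest of the 10 in OFM. It stood at 87.2 in OFM and 11.3 in dorsal retina, and the summits of both lists lay 2 bp apart. The remaining sites lay on chromosomes 3 (4709044 to 4709757), 2 (1294241 to 1295466 and 148256468 to 148257262), 14 (8285548 to 8286673), 1 (193130718 to 193131476) and 26 (2968773 to 2969564). Their differences were between 70.0 and 76.4 points. In the chromosome 14 pair the summits lay 479 bp apart, so its peaks may not mark the same element. At HH34 an OFM peak was present at all 10 sites. At 3 of them the HH34 dorsal list held none, and at the other 7 OFM ranked higher by 13.5 to 68.2 points.

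Toward dorsal retina, the largest shift lay on chromosome 15 at 12601261 to 12602466, with a percentile of 8.96 in OFM and 81.9 in dorsal retina. It lies in the same window as the 3 unmatched dorsal peaks of that chromosome. On chromosome 7, a site at 34892203 to 34893833 stood at 25.8 in OFM and 87.3 in dorsal retina, with peak widths of 189 bp and 1631 bp. On chromosome 19, at 7778751 to 7781155, it was 28.1 in OFM and 88.8 in dorsal retina. These 3 sites had a dorsal peak and no OFM peak at HH34, as did chromosome 3 at 30704610 to 30705806, 15529599 to 15530455 and 26402732 to 26403452, and chromosome 5 at 47565700 to 47566317. Thus 7 of the 10 sites were without an OFM peak at the later stage.

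The other 3 sites differed from these. On chromosome Z, at 7048906 to 7049833, the percentile was 30.9 in OFM and 76.8 in dorsal retina at HH30, and 5.05 in OFM and 70.3 in dorsal retina at HH34. On chromosome 1, at 3420241 to 3423281, it was 19.0 in OFM and 76.4 in dorsal retina at HH30, but 81.5 in OFM and 83.8 in dorsal retina at HH34. By area score over width this HH30 pair ranked higher in OFM, by 4.63 points. On chromosome 11, at 20118594 to 20120793, it was 29.5 in OFM and 81.1 in dorsal retina at HH30, against 99.9 in OFM and 99.8 in dorsal retina at HH34. At the chromosome 1 and 11 sites the HH34 difference was −2.31 and 0.05 points. The HH34 percentiles of the chromosome 11 site recurred at 20112418 to 20113492, a separate dorsal peak at HH30. They thus appear to belong to wider HH34 peaks that span both sites.

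The direction of the difference went with chromosome number, which stands here for size since lengths were not used. OFM had the higher unmatched share on 10 of the 10 chromosomes 1 to 10, and dorsal retina on 20 of the 20 chromosomes 13 to 33. Between them, chromosome 11 had 11.2% in OFM and 11.5% in dorsal retina, and chromosome 12 had 11.5% in OFM and 9.57% in dorsal retina. With matching by 50% reciprocal overlap or by summits at most 200 bp apart, the 20 became 19. With both lists cut to their upper 50% before matching, the 10 became 9 and the 20 became 17. On chromosomes 1 to 5, 13.8% of OFM peaks and 8.97% of dorsal peaks were unmatched. On chromosomes 21 to 33 it was 5.85% of OFM peaks and 13.3% of dorsal peaks. Pairs behaved alike: 57.4% of pairs on chromosomes 1 to 5 ranked higher in OFM, against 33.04% on chromosomes 21 to 33. With equal list length, 7 of the 10 chromosomes 1 to 10 kept a higher unmatched share in OFM. The median rank difference was above 0 on 5 of these 10 instead of 10. It was below 0 on 12 of 12 chromosomes 21 to 33 in each of 7 settings of matching, list length and ranking.

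Some microchromosomes went further. On chromosome 31, 0 of 166 OFM peaks and 60 of 200 dorsal peaks were unmatched, and the median difference of its pairs was −7.58 points. On chromosome 30, 2.15% of OFM peaks and 19.4% of dorsal peaks were unmatched, with a median difference of −3.28. On chromosome 25 it was 3.76% of OFM peaks and 18.1% of dorsal peaks, and on chromosome 33 it was 3.43% of OFM and 19.6% of dorsal peaks. Not all chromosomes with few peaks did so. On chromosomes 32 and 16 the dorsal share was 8.70% and 9.26%, near the 9.76% of the whole dorsal list. Their OFM shares were 1.85% and 2.53%, and their median differences −0.71 and −1.66. Base composition and library depth were not measured here, and their part in this gradient was not tested.

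Chromosome Z, which is large, stood apart from chromosomes of its size, and W went in the direction of the small chromosomes. On Z, 18.7% of OFM peaks and 5.404% of dorsal peaks were unmatched, and 75.0% of 4093 pairs ranked higher in OFM, with a median difference of 2.11 points. On W, 3.09% of 97 OFM peaks and 20.2% of 109 dorsal peaks were unmatched, and 12.3% of its 81 pairs ranked higher in OFM. The labels do not give the sex of the pooled embryos, and its part in the opposite directions of Z and W was not tested.

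**Figure D3:**
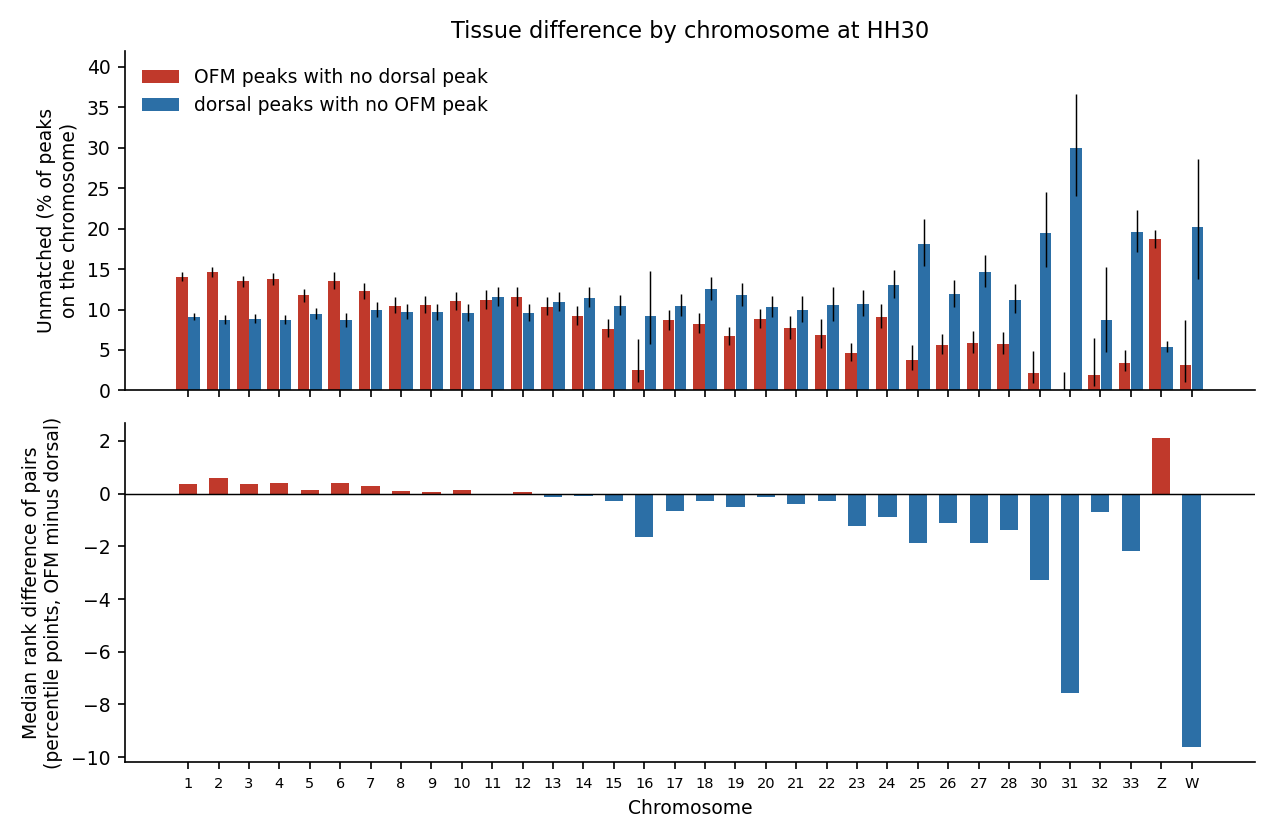
Upper panel, unmatched peaks as a share of the peaks on each chromosome (y axis, %) in OFM (red) and dorsal retina (blue), with 95% Wilson intervals for counting error. Lower panel, median rank difference of pairs (y axis, percentile points, OFM minus dorsal); values are near 0 on the large chromosomes, reach −7.58 on chromosome 31, and are 2.11 on Z and −9.61 on W.

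Differences also gathered in local stretches. The genome was divided into windows of 250 kb, and 1982 windows held at least 20 pairs. The median rank difference of a window lay between −0.61 and 0.91 for the middle 50% of windows. A median at least 5 points higher in OFM was found in 33 windows (1.66%) and one at least 5 points higher in dorsal retina in 35 (1.77%). Chromosome Z held 60 of the 1982 windows, with 10 of the OFM windows and 1 of the dorsal ones. Chromosomes 11 to 33 held 587, with 3 of the OFM windows and 17 of the dorsal ones. With equal list length the counts were 22 toward OFM and 58 toward dorsal retina.

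The window with the highest median was on Z from 48000001 to 48250000, where the 23 pairs had a median of 17.6 points. In it 16 pairs ranked at least 10 points higher in OFM and 0 in dorsal retina. The window held 44 OFM peaks, 20 of them unmatched, and 25 dorsal peaks, 0 of them unmatched. Its most shifted pair, at 48193053 to 48193867, stood at percentile 71.9 in OFM and 10.5 in dorsal retina. At HH34 the same window held 31 OFM and 15 dorsal peaks, and the median of its 11 pairs was 8.19 points. A second Z window, from 72750001, had a median of 12.3 points over 27 pairs. The median of all Z pairs is itself above 0, and relative to it these windows stood 15.5 and 10.2 points higher.

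The other 3 of the 5 highest medians lay on autosomes. On chromosome 3 from 103500001, 14 of 26 pairs ranked at least 10 points higher in OFM and the median was 11.8. The strongest shifted site there, at 103660113 to 103660943, stood at 74.7 in OFM and 34.2 in dorsal retina. On chromosome 4 from 80000001, the median over 28 pairs was 10.5 and 10 of 38 OFM peaks were unmatched. The site at 80101713 to 80102527 stood at percentile 89.4 in OFM and 78.7 in dorsal retina. On chromosome 12 from 14750001, 17 of 33 pairs ranked at least 10 points higher in OFM, and 16 of 50 OFM peaks and 2 of 37 dorsal peaks were unmatched. The site at 14812267 to 14813124 stood at 79.0 in OFM and 24.6 in dorsal retina.

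By surplus of unmatched OFM peaks over unmatched dorsal peaks, a window on chromosome 4 from 40250001 led. There 23 of 68 OFM peaks and 1 of 51 dorsal peaks were unmatched. Its pairs had a median of 5.50 points, and a site at 40453745 to 40454395 stood at 73.3 in OFM and 18.9 in dorsal retina. The Z window from 48000001 came second. It was followed by a window on chromosome 1 from 145750001, with 18 of 60 OFM peaks and 1 of 48 dorsal peaks unmatched and a median of 6.71 points. All 7 named OFM windows had positive medians at HH34, between 5.04 and 10.2 points over 11 to 40 pairs.

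Windows that favoured dorsal retina reached larger differences. On chromosome 27 from 2000001, all 47 pairs ranked higher in dorsal retina, 41 of them by at least 10 points, with a median of −23.0. There 0 of 73 OFM peaks and 27 of 85 dorsal peaks were unmatched. On chromosome 15 from 12500001, 19 of 22 pairs ranked at least 10 points higher in dorsal retina, with a median of −21.3, and 0 of 24 OFM peaks and 26 of 49 dorsal peaks were unmatched. This is the window of the 3 named chromosome 15 peaks. The pair with the highest dorsal rank there, at 12611053 to 12612218, stood at 74.5 in OFM and 89.0 in dorsal retina.

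On chromosome 33 from 2750001, the median was −18.2 over 22 pairs, and 1 of 25 OFM peaks and 19 of 42 dorsal peaks were unmatched. On chromosome 1 from 88500001, it was −17.4 over 24 pairs (−5.60 by area score over width), and 2 of 45 OFM peaks and 33 of 62 dorsal peaks were unmatched. At the start of chromosome 15, from 1, the median was −15.2 over 26 pairs, and each list held 31 peaks. The window with the largest surplus of unmatched dorsal over unmatched OFM peaks, on chromosome 11 from 20000001, held 21 OFM peaks and 50 dorsal peaks. Of these, 0 in OFM and 34 in dorsal retina were unmatched, and all of its 12 pairs ranked at least 10 points higher in dorsal retina.

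The chromosome 1 window holds the widest peak of either HH30 list. In dorsal retina it ran as a single peak of 25552 bp from 88584504 to 88610055 and ranked 9 in its list. The same stretch was broken in OFM into 10 peaks that covered 21658 bp in all, the widest of them 7167 bp, at ranks from 3286 down to 90602. Broken peaks of this kind were found in both directions. Of the OFM peaks 2045 (1.88%) overlapped 2 or more dorsal peaks, and of the dorsal peaks 1763 (1.66%) overlapped 2 or more OFM peaks. The most divided OFM peaks each spanned 4 dorsal peaks, for example on chromosome 2 at 31269583 to 31275931.

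**Figure D4:**
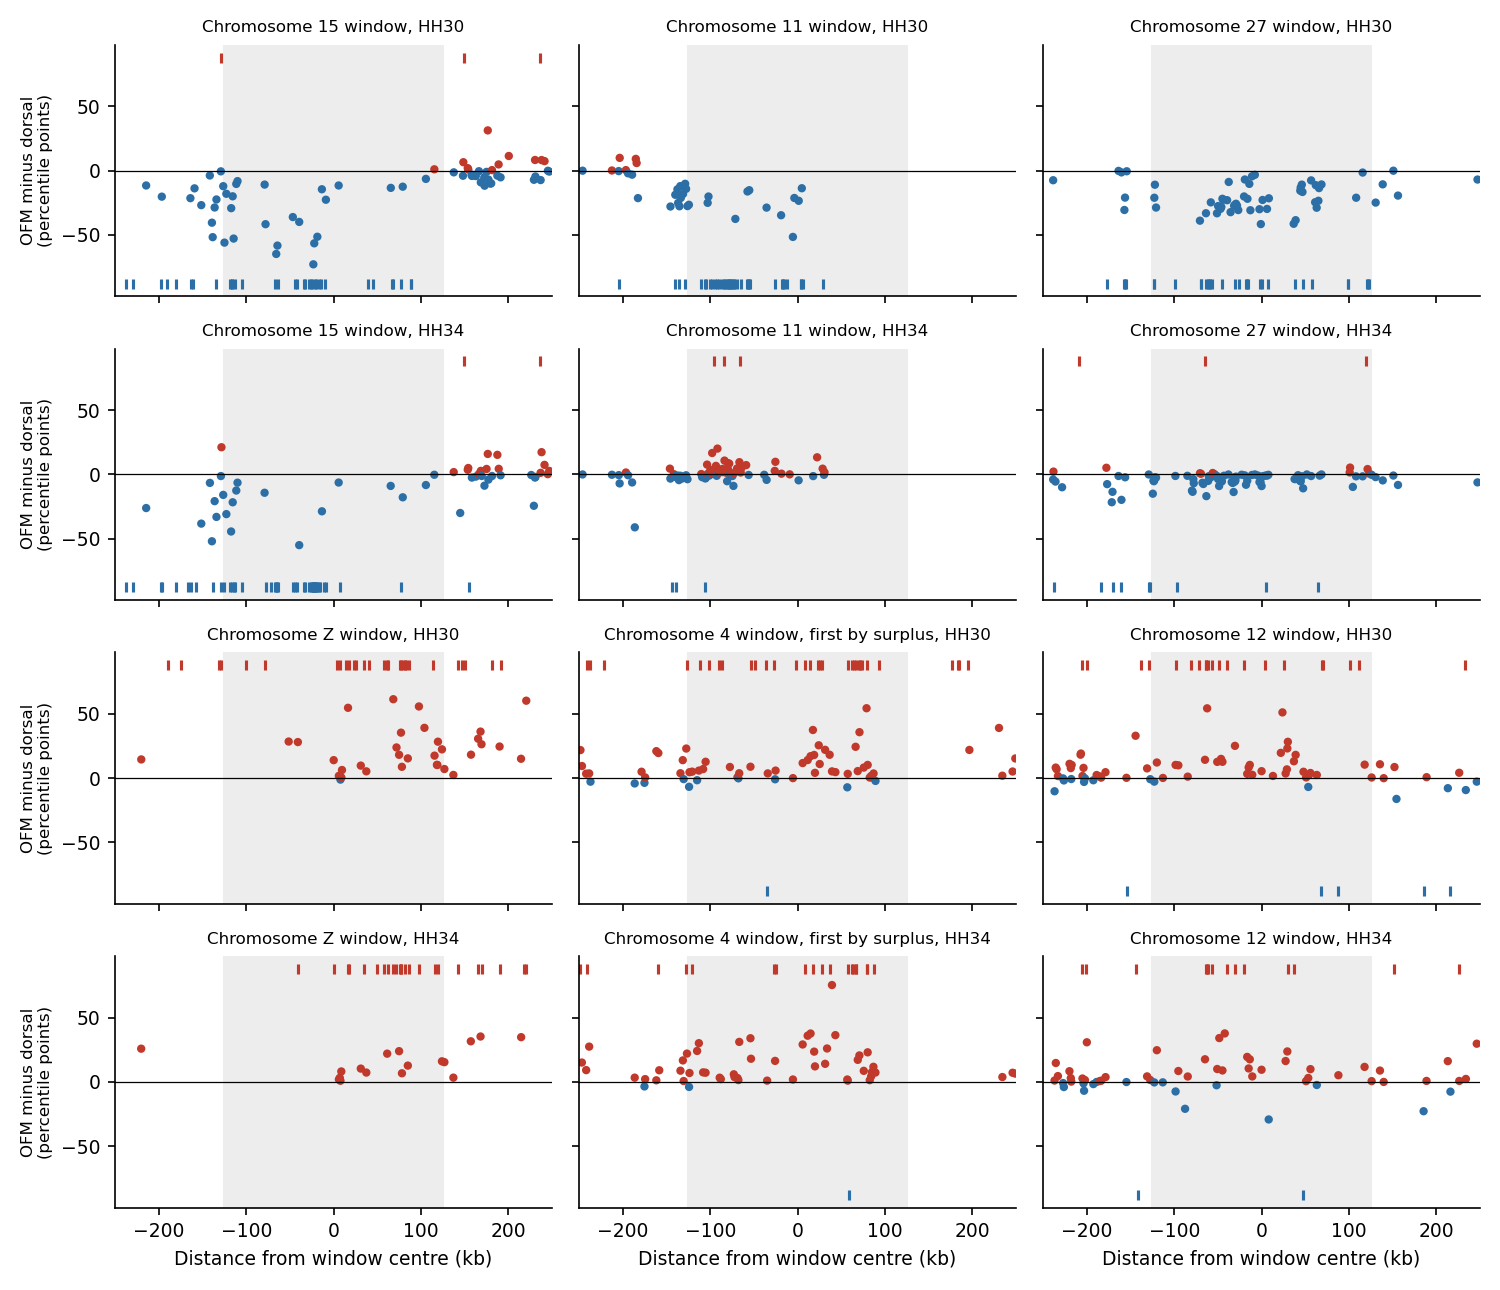
Rank difference of pairs (y axis, percentile points, OFM minus dorsal) against distance from the window centre (x axis, kb) in 6 named windows, shaded, with HH30 above HH34 for each window. Ticks at the top and bottom mark unmatched OFM and dorsal peaks; at HH34 the chromosome 15 window still shows low pairs and dorsal ticks, whereas pairs of the chromosome 11 and 27 windows lie nearer 0 than at HH30.

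The dorsal windows parted at HH34. On chromosome 15 from 12500001 the difference remained, with 15 OFM and 46 dorsal peaks at HH34, 32 of the dorsal peaks unmatched, and a median of −14.3 over 13 pairs. On chromosome 27 from 2000001, the HH34 median was −2.31 over 71 pairs, and 2 of 86 OFM peaks and 3 of 81 dorsal peaks were unmatched. On chromosome 1 from 88500001 it was −0.36 over 45 pairs, on chromosome 33 −3.31 over 37 pairs, and at the start of chromosome 15 −2.52 over 32 pairs. On chromosome 11 from 20000001, each tissue had 61 peaks at HH34 and the median was 1.72 over 54 pairs. Of these 6 windows, the single one with a median below −5 at both stages was that on chromosome 15 from 12500001.

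Over all windows with at least 20 pairs at both stages, 1727 in number, the same contrast was seen. Of 21 such windows at least 5 points higher in OFM at HH30, 21 were above 0 at HH34 and 15 were again at least 5 points higher in OFM. Of 32 at least 5 points higher in dorsal retina, 31 were below 0 at HH34 and 6 were again at least 5 points higher in dorsal retina. These 21 and 32 are the followed parts of the 33 OFM and 35 dorsal windows of HH30. Among all 1727 windows, 62.6% were above 0 at HH34. There 46 (2.66%) passed 5 points toward OFM at HH34 and 18 (1.04%) toward dorsal retina. The 6 include, chosen after their values were seen, a window on chromosome 10 from 16250001, with medians of −12.7 at HH30 and −20.7 at HH34. Another of them lies on Z from 27250001, at −11.1 and −12.7, against the general direction of that chromosome. Whether OFM and dorsal windows differed in this respect was not tested. The HH34 lists, of 105103 OFM and 101452 dorsal peaks, were not cut to equal length. The HH34 counts, shares and medians given above and below may depend on this.

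**Figure D5:**
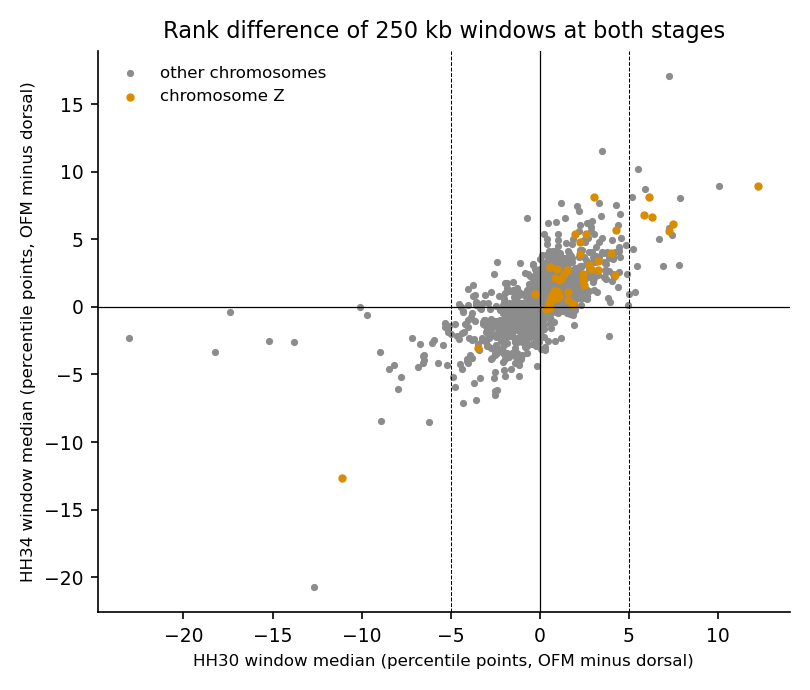
Median rank difference of the 1727 windows of 250 kb with at least 20 pairs at both stages, at HH30 (x axis) and HH34 (y axis), in percentile points, OFM minus dorsal. Dashed lines mark 5 points at HH30; windows beyond the right line lie above 0 at HH34, while several beyond −10 on the left lie between −5 and 0.

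Single unmatched peaks were also looked up at HH34. Of the 13062 unmatched OFM peaks, 33.4% had an OFM peak at HH34, 12.3% a dorsal peak, and 65.6% no peak in either tissue. Of the 10363 unmatched dorsal peaks, 52.5% had an OFM peak at HH34, 65.3% a dorsal peak, and 31.6% no peak in either tissue. Most unmatched OFM positions thus had no HH34 peak at all, and 49.4% of unmatched dorsal positions had a peak in both tissues. Among all OFM peaks of HH30, 83.7% had an OFM peak at HH34, 77.3% a dorsal peak, and 14.68% no peak in either tissue. Among all dorsal peaks, 86.8% had an OFM peak at HH34, 83.7% a dorsal peak, and 10.2% no peak in either tissue. Unmatched peaks are mostly weak, and no comparison with peaks of like rank was made. In the upper 50% of the lists, 356 of the 553 unmatched OFM peaks (64.4%) had an OFM peak and no dorsal peak at HH34, and 66 (11.9%) had both. Over all OFM peaks these shares were 8.00% and 75.7%. Of the 105 unmatched dorsal peaks there, 44 (41.9%) had a dorsal peak and no OFM peak, and 47 (44.8%) had both. Over all dorsal peaks these shares were 2.99% and 80.7%. On chromosomes 21 to 33, both tissues had an HH34 peak at 24.3% of unmatched OFM and 73.3% of unmatched dorsal positions. On chromosomes 1 to 5, it was 9.60% of unmatched OFM and 43.0% of unmatched dorsal positions. The 73.3% lies near the 80.7% over all dorsal peaks, which covers every chromosome. The share over all dorsal peaks of chromosomes 21 to 33 was not computed.

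Shifted pairs could be followed where they remained single pairs at both stages, which held for 69410 of 89947. It held for 50.5% of the pairs at least 10 points higher in OFM and for 74.1% of those at least 10 points higher in dorsal retina, so the shares below rest on unequal parts of the 2 groups. In the HH34 lists as a whole, which also hold pairs not followed here, 13.8% of pairs ranked at least 10 points higher in OFM and 9.99% in dorsal retina. Of 6147 pairs at least 10 points higher in OFM at HH30, 92.0% were above 0 at HH34 and 66.0% were again at least 10 points higher, with a median of 14.6 points. Of 8273 pairs at least 10 points higher in dorsal retina at HH30, 80.6% were below 0 at HH34 and 31.1% again passed 10 points, with a median of −5.96. Over all 69410 followed pairs the HH34 median was 0.68 points, and 60.3% were above 0. Of these 69410, 14.2% ranked at least 10 points higher in OFM at HH34 and 6.19% in dorsal retina. None of these HH34 values was recomputed at equal list length, so the gap between the tissues may depend on it.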

How the data were processed

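Open chromatin was profiled by omni-ATAC-seq in 12 libraries, of which 6 belong to HH30. Per the labels, 50000 cells were counted per library and sequenced as 75 bp pairs to at least 189 M reads. Single library depths are not used here. The submitters' processing notes name Trim Galore, cutadapt 1.16, Bowtie2 2.3.4.3, SAMtools 1.6, Genrich 0.6 and deepTools 3.5.0. Per the labels, Genrich peaks were called jointly within a group. Settings, read filters and any Tn5 shift are not given in the sources used here, and each can change peak width and number. The deposited lists have 10 unnamed columns: among them an area score, the −log10 q of the summit, and the summit offset in bp. The −log10 p columns, 4 in all, were not used. The area score lies above 200 in every list and was used only for ranks within a list.

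Peaks were matched by an overlap of 1 bp. Percentile rank is 100 times 1 minus (rank − 1) over list length. Scripts ran in Python 3.11.15 with numpy 2.4.6, pandas 2.3.3 and scipy 1.17.1, and were tested on simulated data. Named sites were the 10 best-ranked unmatched peaks per list, the 10 largest shifts per direction among pairs at percentile 75 or above in a list, the 5 windows per direction with the most extreme median, and the 3 per direction with the largest surplus of unmatched peaks. Members, rules and lists were chosen with earlier results of these data known. Marker gene lists and motif searches, though planned, were left out, since the gene table at hand belongs to another build.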

Additional observations from a re-analysis of the deposited data

How the results depend on the processing

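Reciprocal overlap of 50% raised unmatched peaks to 19610 in OFM and 17091 in dorsal retina, and strong ones, those of the upper 50%, to 3162 in OFM and 2419 in dorsal retina. Requiring summits at most 200 bp apart raised the strong ones to 2674 in OFM and 2238 in dorsal retina. The share of strong unmatched OFM peaks with an HH34 peak in OFM alone was 32.6% under the reciprocal overlap and 28.3% under the summit distance, against 64.4% as reported. These settings also applied the stricter match to the HH34 lookup and took in more peaks, so the shares differ in both respects. Keeping the upper 50% of each list gave 5901 unmatched OFM and 4605 unmatched dorsal peaks. Of these, 184 in OFM and 59 in dorsal retina lay in the upper 50% of the cut lists. There were 5277 pairs higher in OFM and 4538 in dorsal retina. Of the Z pairs 81.5% ranked higher in OFM, and the HH34 share was 46.2%. Fewer peaks were compared there, and a peak whose only counterpart fell below the cut counted as unmatched. A minimum of 20 points left 4543 pairs higher in OFM and 3599 in dorsal retina. Ranking by −log10 q left 56 strong unmatched dorsal peaks. The share of Z pairs higher in OFM was 73.4% by −log10 q, 66.7% by area score over width and 71.1% at equal list length. Chromosomes 1 to 10 alone, chosen once the data were known, held 6315 unmatched dorsal peaks, 64 of them strong, and 6949 pairs higher in dorsal retina. Beyond the smaller number of peaks or pairs that some settings admit, the cause of these changes was not tested. Of the named pairs, 1 reversed under 1 setting: the chromosome 1 pair from 3420241 was 4.63 points higher in OFM by area score over width. Only 2 of the 20 named pairs met the reciprocal overlap, since their widths differ so much. By area score over width, another 10 of the 20 changed by at least 10 points and kept their direction. By −log10 q, 9 of the 20 did so. By area score over width, 6 of those 10 moved by over 1.5 times. They include chromosome 1 from 173972484 (42.9 points), 14 from 8285548 (36.1) and 7 from 34892203 (−30.5). The rest of the 6 were chromosome 3 from 30704610 (−27.0), 11 from 20118594 (−28.2) and Z from 7048906 (−21.6). By −log10 q the pair from 3420241 was −26.5. Among named windows that could be checked, 2 moved as much without reversing: chromosome 1 from 88500001 to −5.60 by area score over width, and chromosome 1 from 145750001 to 3.83 by area score over width and to 11.5 in the upper 50%. A check needed at least 20 pairs, which 9 named windows kept under the reciprocal overlap and 2 in the upper 50%. The chromosome 11 window from 20000001, with 12 pairs, was checked under no setting.

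No paired analysis was possible because each group has a single joint list with no value for any replicate. Leaving out single replicates was therefore not run. A site without a peak in a list is below that list's threshold, and its signal was not measured here.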

Other observations

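Neighbouring sites with the same direction formed runs, a description chosen after the data had been seen. A run is a series of consecutive sites, at most 100 kb apart, that favour the same tissue. Each site is either an unmatched peak of that tissue or a pair at least 10 points higher in it, and a run can hold both kinds. Runs of 5 or more sites numbered 296 toward OFM and 264 toward dorsal retina, and runs of 8 or more numbered 30 toward OFM and 68 toward dorsal retina. Runs of 5 or more held 1776 sites toward OFM, of 13062 unmatched peaks and 12183 shifted pairs in all. Toward dorsal retina they held 1915 sites, of 10363 unmatched peaks and 11167 shifted pairs. Most such sites thus lay outside these runs, and how many runs a random order would give was not tested. The longest OFM run had 15 sites over 81531 bp on chromosome 4, from 13512401 to 13593931. The longest dorsal run had 37 sites over 103759 bp on chromosome 11, from 19995251 to 20099009. Dorsal runs of 20 or more sites also lay on chromosome 15 (12519670 to 12714326, 36 sites), chromosome 33 (3 runs, the longest from 2983013 to 3049579 with 32 sites), chromosome 1 (88630197 to 88686869, 25 sites) and chromosome 13 (531722 to 614592, 20 sites).

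Of the pairs followed at both stages, 4375 were at least 20 points higher in a tissue at HH30, and 13 of these were at least 20 points higher in the other tissue at HH34. Of the 1805 at least 20 points higher in OFM at HH30, 3.82% were below 0 at HH34. Of the 2570 at least 20 points higher in dorsal retina at HH30, 13.1% were above 0 at HH34. The most extreme lay on chromosome 7 at 21549086 to 21549925, with percentiles of 14.0 in OFM and 52.3 in dorsal retina at HH30, and 47.1 in OFM and 24.5 in dorsal retina at HH34.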
